A study of Homo sapiens with 18 samples.

Results

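The EGFR family is described here through its ligands AREG, EREG and HBEGF, its receptors EGFR, ERBB2 and ERBB3, and the feedback inhibitor ERRFI1. They were chosen as a named set of 8 genes, looked up by symbol among the endogenous genes of the deposited table. Of the 8, 7 were found among 17026 endogenous genes. The ligand TGFA was not analysed here. All 7 passed the filter on low values that left 15354 genes for testing.

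RNA was measured in 3 human pancreatic ductal adenocarcinoma cell lines, PANC1, MiaPaCa-2 and BxPC3, each treated for 6 h with 100 nM THZ1 or with its solvent DMSO. THZ1 binds covalently to CDK7, a kinase of the general transcription machinery, with further activity against CDK12 and CDK13. The submitters describe biological triplicates in all 6 groups, or 18 libraries of polyadenylated RNA. All groups shared an F12 medium with fetal bovine serum, β-glycerophosphate and ascorbic acid, and ERCC spike-in RNA was added to the extracted RNA.

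Ligands of the EGF family are made as membrane-anchored precursors that proteases such as ADAM17 cut from the cell surface. They bind EGFR, which pairs with itself or with ERBB2 and ERBB3 and signals to the MAP kinase and PI3K pathways. ERBB2 has no known ligand of its own, and ERBB3 has little kinase activity and works in pairs with other family members. ERRFI1, also called MIG6, binds the kinase domain of EGFR and restrains it, and its own transcription is raised by the signalling it limits.

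The promoter windows of the ligands, of EGFR and of ERRFI1 are printed. Of the 3 ligands, HBEGF alone passed the test for a change with THZ1 on the deposited values. EGFR and ERRFI1 are the receptor and inhibitor that the ligands are set against. A link between the windows and the responses was not tested. The windows run from 250 bases before to 50 bases after the RefSeq start, in GRCh38.p14, 5′ to 3′ on the strand of the gene. Of the 7 members, 6 matched the RefSeq table. HBEGF lies at chr5:140346554-140346853 on the minus strand. EREG lies at chr4:74364895-74365194 and AREG at chr4:74444886-74445185, both on the plus strand. EGFR lies at chr7:55018767-55019066 on the plus strand, where the first of the 2 listed starts is shown. ERRFI1 lies at chr1:8026260-8026559 on the minus strand. Capitals mark matches, on either strand, to the TATA motif TATAAA, the CRE motif TGACGTCA, the AP-1 motif TGANTCA, the GC box GGGCGG, the CCAAT box and the E-box CACGTG.
HBEGF: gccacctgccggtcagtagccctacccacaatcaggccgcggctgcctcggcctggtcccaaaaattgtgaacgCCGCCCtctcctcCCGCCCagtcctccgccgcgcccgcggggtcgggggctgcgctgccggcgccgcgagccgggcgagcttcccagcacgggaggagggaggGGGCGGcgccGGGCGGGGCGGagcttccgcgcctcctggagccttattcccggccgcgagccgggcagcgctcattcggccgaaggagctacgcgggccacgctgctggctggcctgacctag
EREG: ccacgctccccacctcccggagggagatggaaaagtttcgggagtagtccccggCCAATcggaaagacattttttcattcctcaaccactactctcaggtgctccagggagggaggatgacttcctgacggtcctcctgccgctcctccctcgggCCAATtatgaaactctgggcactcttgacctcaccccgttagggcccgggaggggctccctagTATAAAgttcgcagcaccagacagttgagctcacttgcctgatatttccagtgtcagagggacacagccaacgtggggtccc
AREG: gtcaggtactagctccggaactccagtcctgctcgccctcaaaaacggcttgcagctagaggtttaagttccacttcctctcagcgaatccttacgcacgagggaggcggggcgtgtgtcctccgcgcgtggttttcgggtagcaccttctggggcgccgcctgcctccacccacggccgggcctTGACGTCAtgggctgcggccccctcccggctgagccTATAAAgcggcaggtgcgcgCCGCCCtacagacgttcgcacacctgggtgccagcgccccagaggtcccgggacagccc
EGFR: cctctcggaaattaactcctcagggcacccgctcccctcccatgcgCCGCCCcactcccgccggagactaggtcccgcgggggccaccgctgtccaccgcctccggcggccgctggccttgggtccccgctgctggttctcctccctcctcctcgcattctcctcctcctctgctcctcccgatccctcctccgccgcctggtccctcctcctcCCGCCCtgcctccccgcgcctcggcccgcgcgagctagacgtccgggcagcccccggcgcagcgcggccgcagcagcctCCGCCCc
ERRFI1: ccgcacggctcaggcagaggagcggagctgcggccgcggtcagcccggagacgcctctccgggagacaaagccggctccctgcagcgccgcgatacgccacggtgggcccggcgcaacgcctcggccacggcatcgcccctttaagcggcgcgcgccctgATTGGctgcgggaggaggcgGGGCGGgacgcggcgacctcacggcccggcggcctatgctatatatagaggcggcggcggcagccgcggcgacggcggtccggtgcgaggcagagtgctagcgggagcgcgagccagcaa

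The windows of EREG and AREG held TATAAA, from 32 and from 29 bases before the start, a motif found in 11.5% of the 35116 promoters of the table. AREG also held TGACGTCA, from 65 bases before the start, a motif found in 1.85% of promoters. HBEGF held 5 matches to GGGCGG, of which 2 overlap by 1 base. That motif occurs in 44.95% of promoters, and EGFR, AREG and ERRFI1 held it too. The letters TATAAA did not occur in the windows printed for HBEGF, EGFR and ERRFI1. Only that spelling was searched for, and the ERRFI1 window held the letters tatatata before its start. The window of the second EGFR start, chr7:55109589-55109888, held TATAAA from positions -146 and -36 relative to that start, and TGANTCA from positions -232 and -136, a motif found in 7.71% of promoters. The GC content of that window was 42%. In the windows printed it was 75%, 75.3% and 74.7% for HBEGF, EGFR and ERRFI1, against 57.7% for EREG, 66.3% for AREG and a median of 58.7% over all promoters. The matches describe the sequence and do not show binding.

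Values are printed in rescaled units, in which the endogenous values of the mean library sum to 1e+06. The deposited values proved to be whole reads divided by 1 whole number per library, and 1 unit stood for 6.34 to 24.7 reads. Reads per library ran between 12556005 and 17002050 with THZ1 and between 6352482 and 20910423 with DMSO. The scale leaves library sums free. They were 1.31 to 1.35 times the mean library in the THZ1 libraries of MiaPaCa-2 and BxPC3, and 0.801 to 0.844 times the mean in their DMSO libraries. The libraries of PANC1 lay between 0.836 and 0.856 with THZ1 and between 0.773 and 1.00 with DMSO. Endogenous reads per ERCC read ran the other way, at 234 to 262 with THZ1 and 323 to 383 with DMSO in BxPC3. They were 246 to 336 with THZ1 and 439 to 491 with DMSO in MiaPaCa-2, and 277 to 380 with THZ1 and 375 to 394 with DMSO in PANC1. A change is called where the adjusted p of limma on log2 of the value plus 1 lay under 0.05, and 3 scales are set beside each other where the call depends on them: as deposited, with equal library sums, and with equal ERCC sums. The median tested gene changed with THZ1 by 0.25 (log2) in BxPC3, 0.19 in MiaPaCa-2 and -0.07 in PANC1 as deposited, by -0.29, -0.30 and -0.06 at equal sums, and by -0.64, -0.85 and -0.31 at equal ERCC sums. The ERCC RNA was added to the extracted RNA, so that changes at equal ERCC sums are not shown to be changes per cell. In these bulk samples, fewer cells of a kind and less RNA per cell cannot be told apart.

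PANC1 DMSO replicate 1 stood apart. It was the shallowest library, its residuals from the group mean had an SD of 0.519 (log2), where all others lay between 0.103 and 0.309, and it correlated with its own group at a mean r of 0.940. For PANC1, levels are given with it, and the change of each member with THZ1 also without it. The labelled ductal origin was checked on 8 ductal markers, of which 7 were in the table. Their summed level was 8586 to 8978 units with THZ1 and 4472 to 4845 units with DMSO in BxPC3. In MiaPaCa-2 it was 3674 to 4007 units with THZ1 and 1788 to 1898 units with DMSO, and in PANC1 2699.55 to 3359 units with THZ1 and 2419 to 4231 units with DMSO. The ductal marker CDH1 was near 0 in MiaPaCa-2, at most 0.210 units with THZ1 and 0.216 with DMSO, and KRT7 reached at most 2.42 and 1.06 units there. Both were low in PANC1 too, where CDH1 reached at most 3.36 units with THZ1 and 4.89 with DMSO, and KRT7 4.20 and 7.26. In BxPC3 CDH1 was at least 603 units with THZ1 and 285 with DMSO, and KRT7 at least 3586 and 1888. Not all ductal markers followed this order. With DMSO, median KRT8 was 713 units in BxPC3, 1401 in MiaPaCa-2 and 1562 in PANC1. KRT18 was at 170, 253 and 193 units and MUC1 at 8.81, 10.3 and 15.8 in the same order, lowest in BxPC3. KRT19 was highest in BxPC3 (1525, 61.0 and 796 units) and CLDN4 in PANC1 (89.4, 72.0 and 113 units). Of 3 mesenchymal markers, 2 (VIM and ZEB1) were in the table. Their summed level was 27.5 to 28.9 units with THZ1 and 12.5 to 13.9 units with DMSO in BxPC3. In MiaPaCa-2 it was 2362 to 2520 units with THZ1 and 1393 to 1498 with DMSO, and in PANC1 1388 to 1634 and 1244 to 1630 units. The part of this difference between lines in the results was not tested. Of 3 markers each, 1 leukocyte (CD14), 1 endothelial (VWF) and 1 fibroblast marker (PDGFRB) were in the table. They stayed at or under 3.04 units in all libraries except PANC1 DMSO replicate 1, where VWF and PDGFRB reached 6.79 and 3.63 units, and their part in the results was not tested. The acinar and endocrine markers listed were not analysed here.

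**Figure D1:**
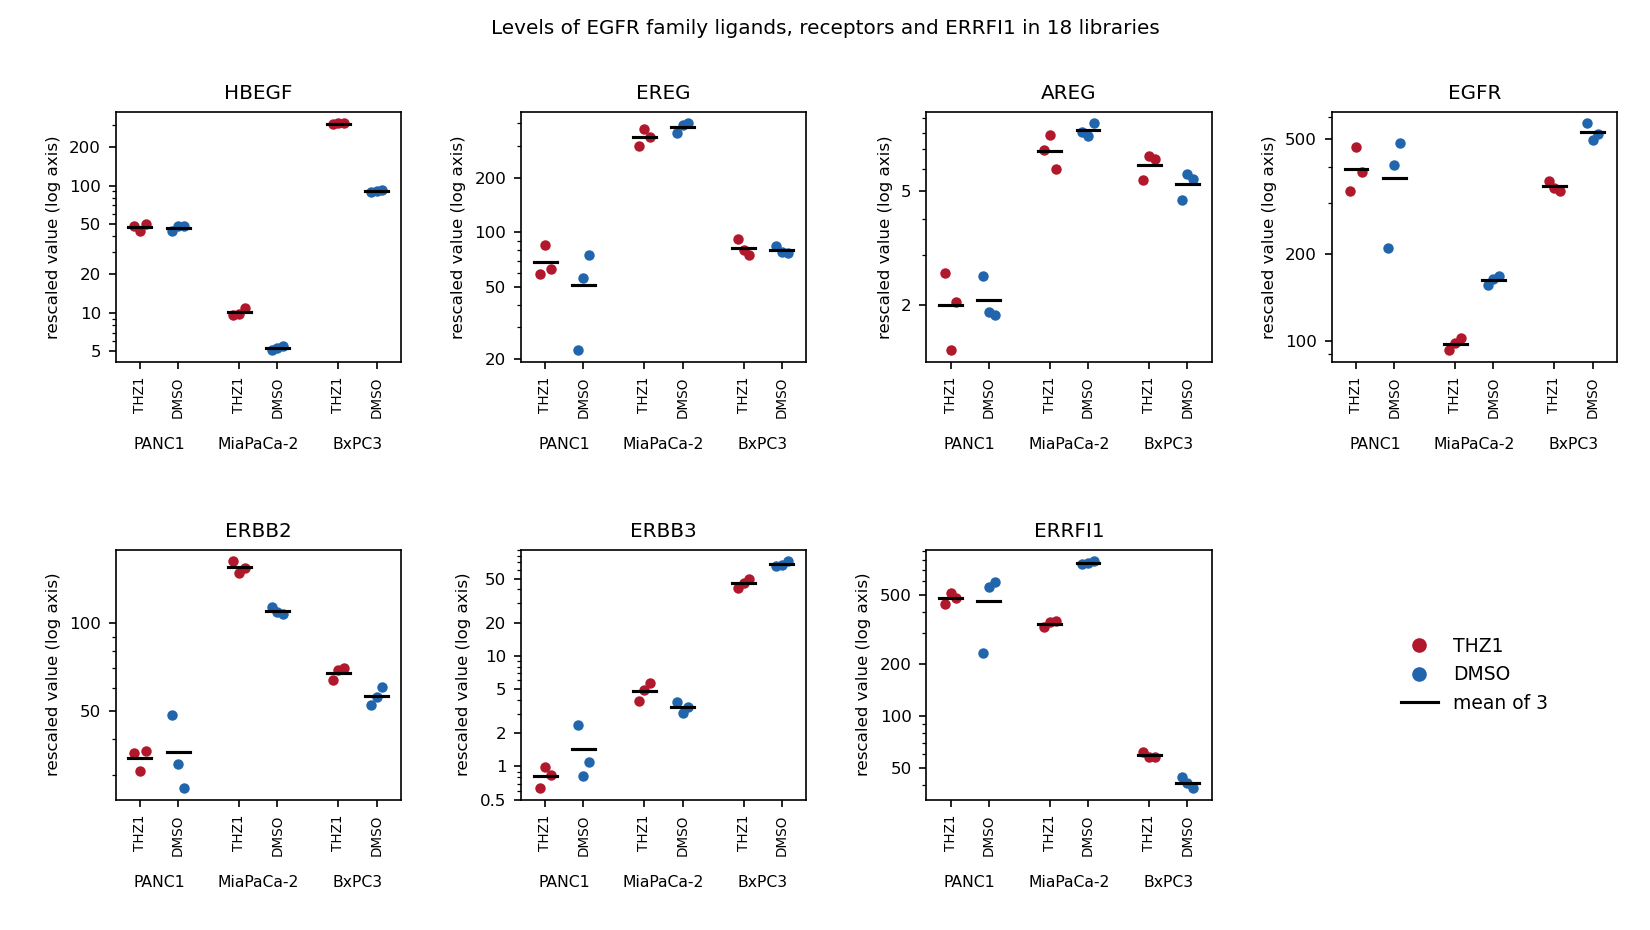
Levels of the 7 members in each of the 18 libraries, in rescaled units on a log axis, by cell line, with THZ1 in red, DMSO in blue and the mean of 3 as a line. HBEGF separates treatments in BxPC3 and MiaPaCa-2, EGFR lies lower with THZ1 in both of these lines, and in PANC1 all 7 members overlap.

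With DMSO alone, the lines differed in each of the 7 members. All 7 were called in PANC1 against MiaPaCa-2, in PANC1 against BxPC3 and in MiaPaCa-2 against BxPC3, against 60.8%, 59.1% and 62.6% of all genes tested. The median gene differed by -0.03, 0.12 and 0.15 (log2) in the same pairs. ERRFI1 averaged 460 ± 200 units in PANC1, 769 ± 18.3 in MiaPaCa-2 and 41.0 ± 3.01 in BxPC3 (SD, n = 3 each). The level in BxPC3 was thus the lowest by a wide margin, with a log2 difference of 4.20 ± 0.23 (SE) for MiaPaCa-2 minus BxPC3 (limma adjusted p = 7.03e-11). HBEGF, a ligand of EGFR, ran in the other direction, at 46.6 ± 2.50 units in PANC1, 5.29 ± 0.215 in MiaPaCa-2 and 90.8 ± 1.46 in BxPC3. EREG, a ligand of EGFR and ERBB4, was highest in MiaPaCa-2, with 51.2 ± 26.7 units in PANC1, 379 ± 24.96 in MiaPaCa-2 and 79.6 ± 4.28 in BxPC3. AREG, a ligand of EGFR, was low in all 3 lines, at 2.09 ± 0.379, 8.18 ± 0.437 and 5.30 ± 0.577 units in the same order. Its reads numbered 16 to 199 per library, and hg19 carries a near-identical second copy, AREGB, so that its count is uncertain.

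Among the receptors, ERBB3 was highest in BxPC3. It averaged 1.43 ± 0.826 units in PANC1 and 3.45 ± 0.413 in MiaPaCa-2, against 68.1 ± 3.61 in BxPC3, and its PANC1 libraries held 11 to 19 reads. EGFR averaged 367 ± 141 units in PANC1, 163 ± 5.64 in MiaPaCa-2 and 529 ± 37.6 in BxPC3. ERBB2 averaged 35.9 ± 10.97 units in PANC1, 110.3 ± 3.35 in MiaPaCa-2 and 56.1 ± 4.01 in BxPC3. The order of the lines thus differed between the receptors, with BxPC3 highest for EGFR and ERBB3 and MiaPaCa-2 highest for ERBB2. Per kilobase of transcript, the highest member was ERRFI1 in PANC1 (148 ± 64.5 units) and in MiaPaCa-2 (248 ± 5.91 units), and EGFR in BxPC3 (53.9 ± 3.83 units). The level of ERBB3 per kilobase was the lowest of the 7 in PANC1 and MiaPaCa-2, at 0.241 ± 0.140 and 0.582 ± 0.0698 units.

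Some neighbours in these orders were not stable. EGFR and EREG in PANC1 minus BxPC3 differed by -0.61 and -0.79 on the log2 scale (limma adjusted p = 0.018 and 0.024). At equal ERCC sums the same differences gave adjusted p = 0.139 and 0.104, and in a fit of the compared groups alone 0.154 and 0.171. Without PANC1 DMSO replicate 1 they were -0.25 and -0.29 (adjusted p = 0.0256 and 0.0478). Without that library the ERRFI1 level in PANC1 minus MiaPaCa-2 was -0.42, against -0.86 with it. With all libraries, that ERRFI1 difference was not called by edgeR (adjusted p = 0.0535) or in a fit of the compared groups alone (limma adjusted p = 0.0955).

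After THZ1, 3 of the 7 members were called in BxPC3, where limma called 59% of all genes, 40% higher and 18.9% lower. HBEGF rose, and EGFR and ERBB3 fell. In MiaPaCa-2, 4 of 7 were called, against 56.3% of all genes, 36.5% higher and 19.8% lower. HBEGF and ERBB2 rose, and EGFR and ERRFI1 fell. In PANC1 limma called 0 of 7, against 0.501% of all genes. These counts depended on single DMSO libraries of PANC1. Without replicate 1, 1 of 7 (ERRFI1) and 1045 genes were called in PANC1, and without replicate 3, 1 of 7 (EREG) and 3334 genes, against 77 genes with all libraries. Without replicate 1, 5 of 7 members and 11236 genes were called in BxPC3. With all libraries of PANC1, 0 members and 3407 genes had an unadjusted p under 0.05, and edgeR and DESeq2 on the recovered reads also called 0 members. The libraries of the 2 treatments did not overlap for 5 of 7 members in BxPC3, 5 of 7 in MiaPaCa-2 and 0 of 7 in PANC1, against 76.1%, 73.8% and 17.1% of all genes. Set against these shares, the members as a set did not stand above all genes. The split of all calls into higher and lower depended on the scale. As deposited 6147 genes were higher and 2908 lower in BxPC3, and 5598 higher and 3042 lower in MiaPaCa-2. At equal sums 1435 were higher and 6566 lower in BxPC3, and 1456 higher and 6573 lower in MiaPaCa-2. At equal ERCC sums 207 were higher and 9066 lower in BxPC3, and 226 higher and 11223 lower in MiaPaCa-2. Of the members, 1 was then higher and 5 lower in BxPC3, against 60.4% of genes called on that scale, and 0 were higher and 6 lower in MiaPaCa-2, against 74.6%.

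HBEGF was the only one of the 3 ligands called as deposited. In BxPC3 its 3 libraries with THZ1 held 302, 309 and 310.0 units, against 89.2, 91.1 and 92.1 units with DMSO. The groups lay far apart, and the fitted level with THZ1 was 3.36 times that with DMSO, a log2 change of 1.75 ± 0.08 (SE, limma adjusted p = 7.33e-11). Of all tested genes, 99.4% had a lower change in that line. In MiaPaCa-2 HBEGF held 9.53, 9.82 and 10.8 units with THZ1, against 5.06, 5.34 and 5.48 units with DMSO. These groups did not overlap either, and the log2 change was 0.81 ± 0.08 (adjusted p = 2.09e-07). In PANC1 the values were 48.1, 43.9 and 49.6 units with THZ1, against 43.7, 47.9 and 48.2 units with DMSO. Those groups overlapped, and the log2 change of 0.02 ± 0.08 had an interval of -0.14 to 0.18. Without PANC1 DMSO replicate 1 the change of HBEGF was -0.03 (adjusted p = 0.885).

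The scale changed how HBEGF reads in MiaPaCa-2. In BxPC3 the rise was called as deposited, at equal sums (1.02) and at equal ERCC sums (0.56, limma adjusted p = 0.00804). In MiaPaCa-2 it was 0.24 at equal sums (adjusted p = 0.0762) and -0.32 at equal ERCC sums (adjusted p = 0.0936). Relative to the median gene, HBEGF lay 1.496 higher in BxPC3 and 0.62 higher in MiaPaCa-2 on the log2 scale as deposited.

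EREG and AREG were not called in any of the 3 lines as deposited. EREG held 91.4, 80.0 and 75.2 units with THZ1 in BxPC3, against 84.5, 77.6 and 76.6 units with DMSO, and the groups overlapped. In MiaPaCa-2 it held 299, 368 and 332 units with THZ1, against 351, 387 and 399 units with DMSO. These groups overlapped too, with log2 changes of 0.04 ± 0.28 in BxPC3 and -0.19 ± 0.28 in MiaPaCa-2 (limma adjusted p = 0.906 and 0.597). In PANC1 EREG held 58.7, 85.4 and 62.5 units with THZ1, against 22.4, 56.0 and 75.1 units with DMSO, where the lowest value was replicate 1. Its log2 change of 0.56 ± 0.28 (adjusted p = 0.243) was 0.07 without that library, and 0.92 without DMSO replicate 3 (adjusted p = 0.0296), where 3334 genes were called in all. AREG averaged 6.19 ± 0.647 units with THZ1 and 5.30 ± 0.577 with DMSO in BxPC3. In MiaPaCa-2 it averaged 6.94 ± 0.930 units with THZ1 and 8.18 ± 0.437 with DMSO, and in PANC1 2.01 ± 0.604 with THZ1 and 2.09 ± 0.379 with DMSO. Those groups overlapped in every line, and the AREG change in PANC1 of -0.05 was 0.05 without DMSO replicate 1 (adjusted p = 0.909). Other scales did call both ligands. At equal ERCC sums EREG and AREG fell in BxPC3 (-1.13 and -0.80) and in MiaPaCa-2 (-1.48 and -1.35). At equal sums AREG fell in BxPC3 (-0.43) and in MiaPaCa-2 (-0.78), and EREG fell in MiaPaCa-2 (-0.84, adjusted p = 0.0486). AREG in MiaPaCa-2 was also called lower with TMM scaling (-0.42, adjusted p = 0.0199), with DESeq2 size factors (-0.38, adjusted p = 0.0319), by edgeR (-0.45, adjusted p = 0.0237) and by DESeq2 (-0.43, adjusted p = 0.0263). The deposited scale was the only 1 of the 5 scales on which it was not called.

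EREG and AREG lie side by side on chromosome 4, between EPGN and BTC, which encode further ligands. EPGN, a ligand of EGFR, was low, at 2.61 ± 0.959 units with THZ1 and 5.73 ± 0.532 with DMSO in MiaPaCa-2, where it fell by 0.93 on the log2 scale (limma adjusted p = 0.00112). In BxPC3 EPGN changed by -0.13 (adjusted p = 0.616). BTC, a ligand of EGFR and ERBB4, averaged 8.32 ± 1.65 units with THZ1 and 4.94 ± 0.693 with DMSO in BxPC3, where it rose by 0.64 (adjusted p = 0.00729). That call was lost on each of the other 4 scales, with -0.37 at equal ERCC sums and 0.01 at equal sums, and by edgeR and DESeq2. In MiaPaCa-2 BTC changed by -0.00 (adjusted p = 0.996), and it was called lower at equal sums (-0.54) and at equal ERCC sums (-1.09).

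EGFR fell in BxPC3 and in MiaPaCa-2. Its reads cannot be told apart from those of the antisense gene within it, since the use of strand in counting is not given. It held 359.7, 339.5 and 331 units with THZ1 in BxPC3, against 570.1, 496 and 522 units with DMSO. In MiaPaCa-2 it held 92.3, 97.95 and 102 units with THZ1, against 156, 164 and 167 units with DMSO. The groups did not overlap in either line, and the log2 changes were -0.62 ± 0.21 and -0.73 ± 0.21 (SE, limma adjusted p = 0.0168 and 0.00654). Relative to the median gene they were -0.87 and -0.92. The direction was the same at equal sums and at equal ERCC sums, where EGFR changed by -1.81 in BxPC3 and -2.02 in MiaPaCa-2. Without BxPC3 DMSO replicate 1 the adjusted p in BxPC3 was 0.0574, and without PANC1 DMSO replicate 1 it was 1.24e-06. The fit shares 1 estimate of the spread per gene over all 18 libraries, those of PANC1 among them. In PANC1 EGFR held 331, 471 and 386 units with THZ1, against 209.6, 406 and 484 units with DMSO. These groups overlapped, and the log2 change of 0.18 ± 0.21 (adjusted p = 0.586) was -0.18 without DMSO replicate 1.

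ERBB2, the partner receptor without a ligand, rose in MiaPaCa-2. It held 164, 149 and 155 units with THZ1, against 114, 109 and 108 units with DMSO. These groups did not overlap, and the log2 change was 0.50 ± 0.14 (limma adjusted p = 0.00753). The direction turned at equal sums (-0.15) and at equal ERCC sums (-0.79, adjusted p = 0.000147). In BxPC3 ERBB2 held 63.7, 68.7 and 70.3 units with THZ1, against 52.2, 55.7 and 60.2 units with DMSO, a log2 change of 0.27 ± 0.14 (adjusted p = 0.123). It was called higher without PANC1 DMSO replicate 1 (adjusted p = 0.00327) and in a fit of BxPC3 alone (adjusted p = 0.000285). Though the groups did not overlap, that change lay 0.02 above that of the median gene, and it was called lower at equal sums (-0.45) and at equal ERCC sums (-0.90). In PANC1 it averaged 34.3 ± 3.07 units with THZ1 and 35.9 ± 10.97 with DMSO. That change of -0.03 was 0.20 without DMSO replicate 1 (adjusted p = 0.165).

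ERBB3 fell in BxPC3, the line that expressed it most. It held 41.3, 46.0 and 49.5 units with THZ1, against 65.3, 66.8 and 72.2 units with DMSO. The groups did not overlap, and the log2 change was -0.57 ± 0.18 (limma adjusted p = 0.0133). The fall was also called at equal sums and at equal ERCC sums (-1.73). With a pseudocount of 0.1 in place of 1 the adjusted p was 0.0732, and without BxPC3 THZ1 replicate 1 it was 0.0544. Without PANC1 DMSO replicate 1 it was 0.00023. In MiaPaCa-2 ERBB3 held 3.94, 4.91 and 5.68 units with THZ1, against 3.84, 3.02 and 3.48 units with DMSO, from 43 to 95 reads. That change of 0.39 ± 0.18 was not called (adjusted p = 0.0831). It was called without PANC1 DMSO replicate 1 (adjusted p = 0.00713), without MiaPaCa-2 THZ1 replicate 1 (0.50) and in a fit of MiaPaCa-2 alone (adjusted p = 0.0243). It was -0.13 at equal sums and -0.64 at equal ERCC sums (adjusted p = 0.0106). In PANC1 it averaged 0.818 ± 0.178 units with THZ1 and 1.43 ± 0.826 with DMSO, at most 19 reads in a library. The change of -0.37 was -0.11 without DMSO replicate 1 (adjusted p = 0.712). ERBB3 passed the filter on low values through the other lines, and its PANC1 values are near the floor of what the depth can show.

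ERRFI1 fell in MiaPaCa-2, where its level was highest. It held 326, 347 and 352 units with THZ1, against 751, 768 and 788 units with DMSO. The groups were far apart, and the fitted level with THZ1 was 0.445 times that with DMSO, a log2 change of -1.17 ± 0.23 (limma adjusted p = 0.000424). Of all tested genes, 4.01% had a lower change in that line. The change was -2.46 at equal ERCC sums. In BxPC3 ERRFI1 held 62.1, 57.4 and 57.4 units with THZ1, against 44.0, 40.9 and 38.0 units with DMSO. Those groups did not overlap, with THZ1 above, but the change of 0.52 ± 0.23 was not called (adjusted p = 0.0653). It was called without PANC1 DMSO replicate 1 (adjusted p = 5.41e-08) and in a fit of BxPC3 alone (adjusted p = 5.18e-08), and its sign turned at equal sums (-0.20) and at equal ERCC sums (-0.65). In PANC1 ERRFI1 held 446, 516 and 482 units with THZ1, against 230.3, 556 and 595 units with DMSO. The log2 change of 0.18 ± 0.23 (adjusted p = 0.629) was -0.26 without DMSO replicate 1, where the member was called lower (adjusted p = 0.0212) along with 1045 genes in all.

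**Figure D2:**
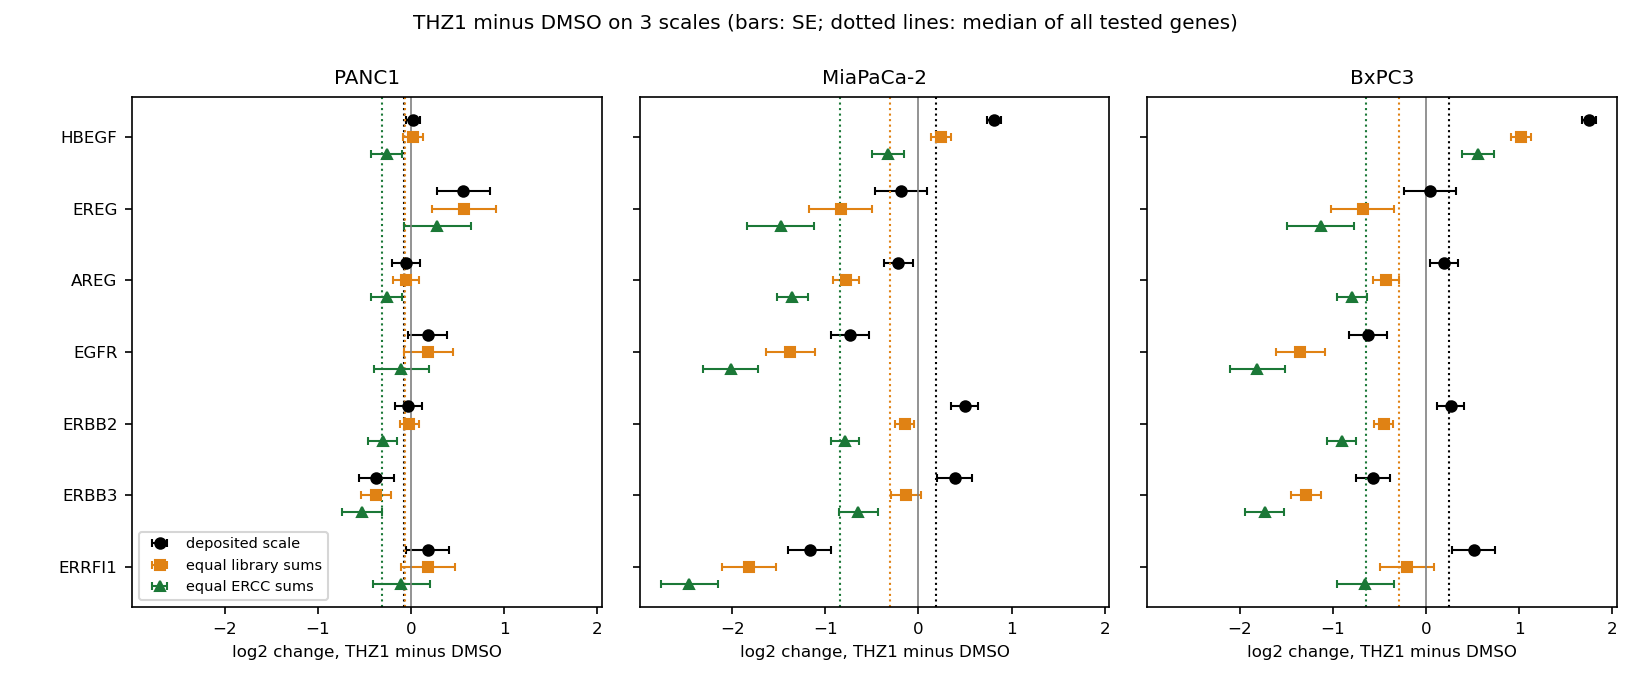
Log2 change of each member, THZ1 minus DMSO, in PANC1, MiaPaCa-2 and BxPC3 as deposited (black circles), at equal library sums (orange squares) and at equal ERCC sums (green triangles), with SE bars and the median of all tested genes dotted. HBEGF stays above 0 on all 3 scales in BxPC3 alone, and EGFR stays below 0 on all 3 in MiaPaCa-2 and BxPC3.

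The response was then compared between lines with the difference of the log2 changes. Of the 7 members, limma called 3 for MiaPaCa-2 minus BxPC3, 2 for PANC1 minus BxPC3 and 4 for PANC1 minus MiaPaCa-2, against 13.8%, 42.7% and 38.9% of all genes. These comparisons share libraries, so that they are not independent of each other. The median gene differed by -0.06, -0.32 and -0.24 in the same pairs as deposited, and by -0.18, 0.40 and 0.59 at equal ERCC sums. HBEGF was called in all 3, at -0.93 ± 0.11 for MiaPaCa-2 minus BxPC3 (adjusted p = 3.25e-05), -1.73 ± 0.11 for PANC1 minus BxPC3 (adjusted p = 3.8e-08) and -0.80 ± 0.11 for PANC1 minus MiaPaCa-2 (adjusted p = 5.32e-05). Its response was thus ordered PANC1, MiaPaCa-2 and BxPC3 from low to high as deposited. The difference for PANC1 minus MiaPaCa-2 was -0.22 at equal sums (adjusted p = 0.286) and turned to 0.06 at equal ERCC sums. ERRFI1 responded lower in MiaPaCa-2 than in BxPC3, by -1.68 ± 0.33 (adjusted p = 0.0024), and higher in PANC1 than in MiaPaCa-2, by 1.35 ± 0.33 (adjusted p = 0.0043). For ERRFI1 in PANC1 minus BxPC3 the difference of -0.34 had an interval of -1.03 to 0.36.

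EGFR responded higher in PANC1 than in BxPC3 by 0.80 ± 0.29 and than in MiaPaCa-2 by 0.92 ± 0.29 (limma adjusted p = 0.0369 and 0.0215). Without PANC1 DMSO replicate 1 the differences were 0.44 and 0.56 and were still called. In fits of the compared groups alone the adjusted p were 0.095 and 0.0652. Leaving out any of 7 single libraries of PANC1 or BxPC3 also ended the call against BxPC3, with adjusted p up to 0.0983, and leaving out PANC1 THZ1 replicate 2 ended that against MiaPaCa-2. Between MiaPaCa-2 and BxPC3 the EGFR responses differed by -0.11, with an interval of -0.74 to 0.51. ERBB3 responded higher in MiaPaCa-2 than in BxPC3 by 0.96 ± 0.26 (adjusted p = 0.0203) and the difference for PANC1 minus MiaPaCa-2 was -0.76 ± 0.26 (adjusted p = 0.0294). The first was lost with a pseudocount of 0.1 (adjusted p = 0.0872) and without any 1 of 4 libraries, BxPC3 THZ1 replicate 1, BxPC3 DMSO replicate 3, MiaPaCa-2 THZ1 replicate 3 and MiaPaCa-2 DMSO replicate 2 (adjusted p up to 0.057). The second was lost without any 1 of 5, PANC1 THZ1 replicate 1 and replicates 2 and 3 of both groups of MiaPaCa-2 (adjusted p up to 0.0763). It was -0.50 without PANC1 DMSO replicate 1 (adjusted p = 0.0268), -0.24 at equal sums (adjusted p = 0.422) and 0.12 at equal ERCC sums. The ERBB3 values rest on 11 to 19 reads per library in PANC1 and 43 to 95 in MiaPaCa-2, and no response of PANC1 can be read from so few.

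Ratios between members within a library do not depend on the scale of that library. Each of 5 ratios was compared in each line, and with 3 libraries a group no such test can reach 0.05. Per kilobase of transcript, HBEGF stood at 7.28 ± 0.803 per EREG with THZ1 and 2.21 ± 0.150 with DMSO in BxPC3. In MiaPaCa-2 the same ratio was 0.0588 ± 0.00623 with THZ1 and 0.0271 ± 0.000718 with DMSO (SD, n = 3 each). HBEGF per EREG was higher with THZ1 in both lines, with log2 differences of 1.71 and 1.12 and no overlap. The exact two-sided permutation p was 0.1 in both lines, the smallest that 3 against 3 libraries allow. In PANC1 the libraries overlapped, at 1.59, 0.996 and 1.54 with THZ1 and 3.78, 1.66 and 1.24 with DMSO.

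HBEGF was set against its receptor in the same way. Its level per EGFR was 3.69 ± 0.205 with THZ1 and 0.709 ± 0.0579 with DMSO in BxPC3, and 0.425 ± 0.0129 with THZ1 and 0.134 ± 0.000834 with DMSO in MiaPaCa-2. In BxPC3 the ratio was below 1 in each DMSO library and above 3 in each THZ1 library. The size of the ratio depends on the transcript lengths used, 2386 bases for HBEGF and 9821 for EGFR. Its change between treatments does not. EGFR per ERBB2 was 2.36 ± 0.226 with THZ1 and 4.39 ± 0.573 with DMSO in BxPC3, and 0.289 ± 0.0252 with THZ1 and 0.683 ± 0.0439 with DMSO in MiaPaCa-2. The ratio was lower with THZ1 in both lines without overlap, by -0.89 and -1.24 on the log2 scale (exact permutation p = 0.1 each). In PANC1 EGFR per ERBB2 was 4.28, 7.07 and 4.91 with THZ1, against 2.02, 5.75 and 8.32 with DMSO, and the groups overlapped. EGFR per ERBB3 averaged 4.58 ± 0.621 with THZ1 and 4.70 ± 0.493 with DMSO in BxPC3, where both receptors fell and the ratios overlapped. In MiaPaCa-2 it averaged 12.3 ± 1.69 with THZ1 and 28.8 ± 4.12 with DMSO, without overlap.

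The ratio of the inhibitor to its target differed in direction between lines. ERRFI1 per EGFR was 0.543 ± 0.00731 with THZ1 and 0.245 ± 0.0152 with DMSO in BxPC3, a log2 difference of 1.15. In MiaPaCa-2 it was 11.1 ± 0.147 with THZ1 and 14.97 ± 0.202 with DMSO, a log2 difference of -0.43. The ratio was thus higher with THZ1 in 1 line and lower in the other, without overlap in either. In PANC1 it was 4.26, 3.47 and 3.95 with THZ1 and 3.48, 4.33 and 3.89 with DMSO. There DMSO replicate 1, low for both genes, lay within the range of the THZ1 libraries.

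**Figure D3:**
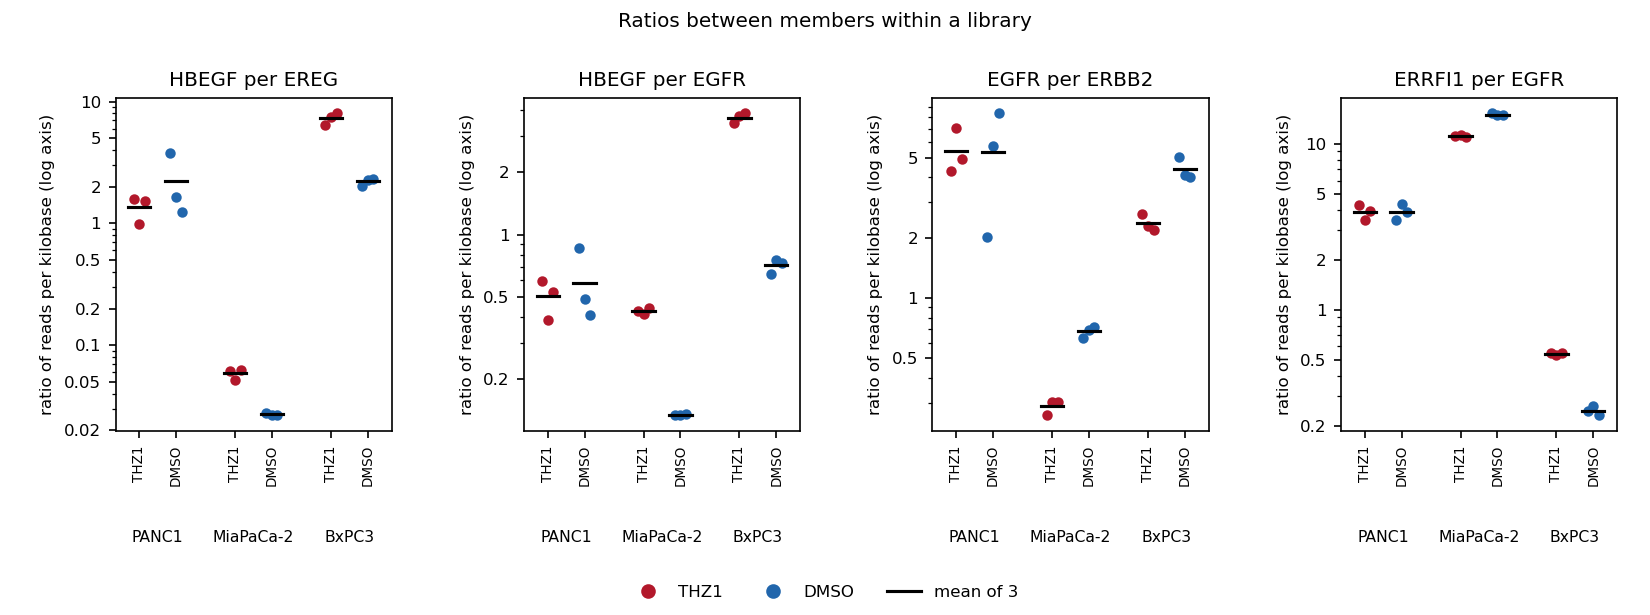
Ratios between members within each library, from values per kilobase of transcript on a log axis, for 3 THZ1 (red) and 3 DMSO (blue) libraries per line, with the mean as a line. The treatments separate in MiaPaCa-2 and BxPC3 for all 4 ratios and overlap in PANC1, and ERRFI1 per EGFR separates in opposite directions in MiaPaCa-2 and BxPC3.

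The rest of the pathway was taken from lists of 35 further genes, of which 32 were in the table and 30 were tested. The receptor ERBB4 and the ligand EGF were in the table but too low to test, and NRG1, NRG3 and CBLC were not analysed here. Of the 30, 12 rose, 7 fell and 11 were not called in BxPC3, and 9 rose, 8 fell and 13 were not called in MiaPaCa-2. Of all genes tested, 40% rose and 18.9% fell in BxPC3, and 36.5% rose and 19.8% fell in MiaPaCa-2. In PANC1 limma called 0 of the 30, against 0.501% of all genes. Their median log2 change was 0.22 in BxPC3, 0.05 in MiaPaCa-2 and 0.01 in PANC1, beside 0.25, 0.19 and -0.07 for all genes tested. The rises depended on the scale. At equal ERCC sums 0 of the 30 rose and 18, 26 and 4 fell in BxPC3, MiaPaCa-2 and PANC1, against 59%, 73.1% and 18.2% of all genes that fell on that scale.

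Of 9 adaptors and proximal effectors, 4 rose and 2 fell in BxPC3, where 40% of all genes rose and 18.9% fell. In MiaPaCa-2 also 4 rose and 2 fell, against 36.5% and 19.8% of all genes. GRB2, the adaptor that couples receptors to MAP kinase signalling, averaged 124 ± 3.21 units with THZ1 and 55.2 ± 0.953 with DMSO in BxPC3. Its log2 change was 1.15 ± 0.06 in BxPC3 and 0.84 ± 0.06 in MiaPaCa-2 (limma adjusted p = 3.76e-10 and 1.43e-08). The changes of GRB2 were -0.03 and -0.45 at equal ERCC sums. SHC1, another adaptor, changed by 1.13 and 0.69, and by -0.06 and -0.61 at equal ERCC sums. SOS1, an exchange factor that binds GRB2, averaged 19.0 ± 2.31 units with THZ1 and 56.2 ± 2.39 with DMSO in MiaPaCa-2. It fell by 1.52 there and by 0.54 in BxPC3 (adjusted p = 1.5e-05 and 0.0386). PIK3R1, the regulatory subunit of PI3K, fell by 1.33 in MiaPaCa-2 and by 1.24 in BxPC3. Both SOS1 and PIK3R1 were also lower in both lines at equal ERCC sums.

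Of 5 genes of ligand release, 1 rose and 1 fell in BxPC3, against 40% and 18.9% of all genes, and 1 rose and 2 fell in MiaPaCa-2, against 36.5% and 19.8%. ADAM17, the protease that cuts AREG, EREG and HBEGF precursors, averaged 16.1 ± 1.11 units with THZ1 and 7.65 ± 0.635 with DMSO in BxPC3. It rose by 0.99 in that line (limma adjusted p = 0.00477) and changed by 0.20 without a call in MiaPaCa-2. At equal ERCC sums it changed by -0.10 and -1.06. FRMD8, which stabilises the ADAM17 complex, fell by 0.56 in BxPC3 and by 0.93 in MiaPaCa-2 (adjusted p = 0.000574 and 4.29e-06). RHBDF2, another partner of ADAM17, changed by -0.36 in BxPC3, without a call, and fell by 0.86 in MiaPaCa-2 (adjusted p = 0.001). Its relative RHBDF1 changed by 0.30 in BxPC3, without a call, and rose by 0.43 in MiaPaCa-2 (adjusted p = 0.118 and 0.0299), and at equal ERCC sums it changed by -0.87 and -0.81.

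Of 4 further ligands tested, 1 rose and 1 fell in BxPC3, where 40% of all genes rose and 18.9% fell, and 0 rose and 2 fell in MiaPaCa-2, against 36.5% and 19.8%. NRG4, a ligand of ERBB4, averaged 0.457 ± 0.247 units with THZ1 and 2.04 ± 0.259 with DMSO in MiaPaCa-2. It fell by 1.07 there and by 0.44 in BxPC3 (limma adjusted p = 4.31e-05 and 0.0303). The THZ1 mean in MiaPaCa-2 lay near the floor and below the pseudocount of 1, so that 1.07 understates the change of the means. Of 12 genes of receptor degradation and restraint, 6 rose and 3 fell in BxPC3, against 40% and 18.9% of all genes, and 4 rose and 2 fell in MiaPaCa-2, against 36.5% and 19.8%. RNF41, also called NRDP1, a ubiquitin ligase that lowers ERBB3, averaged 11.5 ± 0.125 units with THZ1 and 34.5 ± 3.69 with DMSO in BxPC3. It fell by 1.496 there and by 1.32 in MiaPaCa-2 (adjusted p = 4.71e-08 and 2.75e-07), and at equal ERCC sums too. EPN1, an endocytic adaptor, changed by 1.15 and 1.01, and by -0.04 and -0.28 at equal ERCC sums. SOCS5, which can restrain EGFR, changed by 0.96 and 0.85, and by -0.16 and -0.39 at equal ERCC sums. SOCS4, its relative, fell by 1.03 in MiaPaCa-2 and changed by -0.57 without a call in BxPC3.

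**Figure D4:**
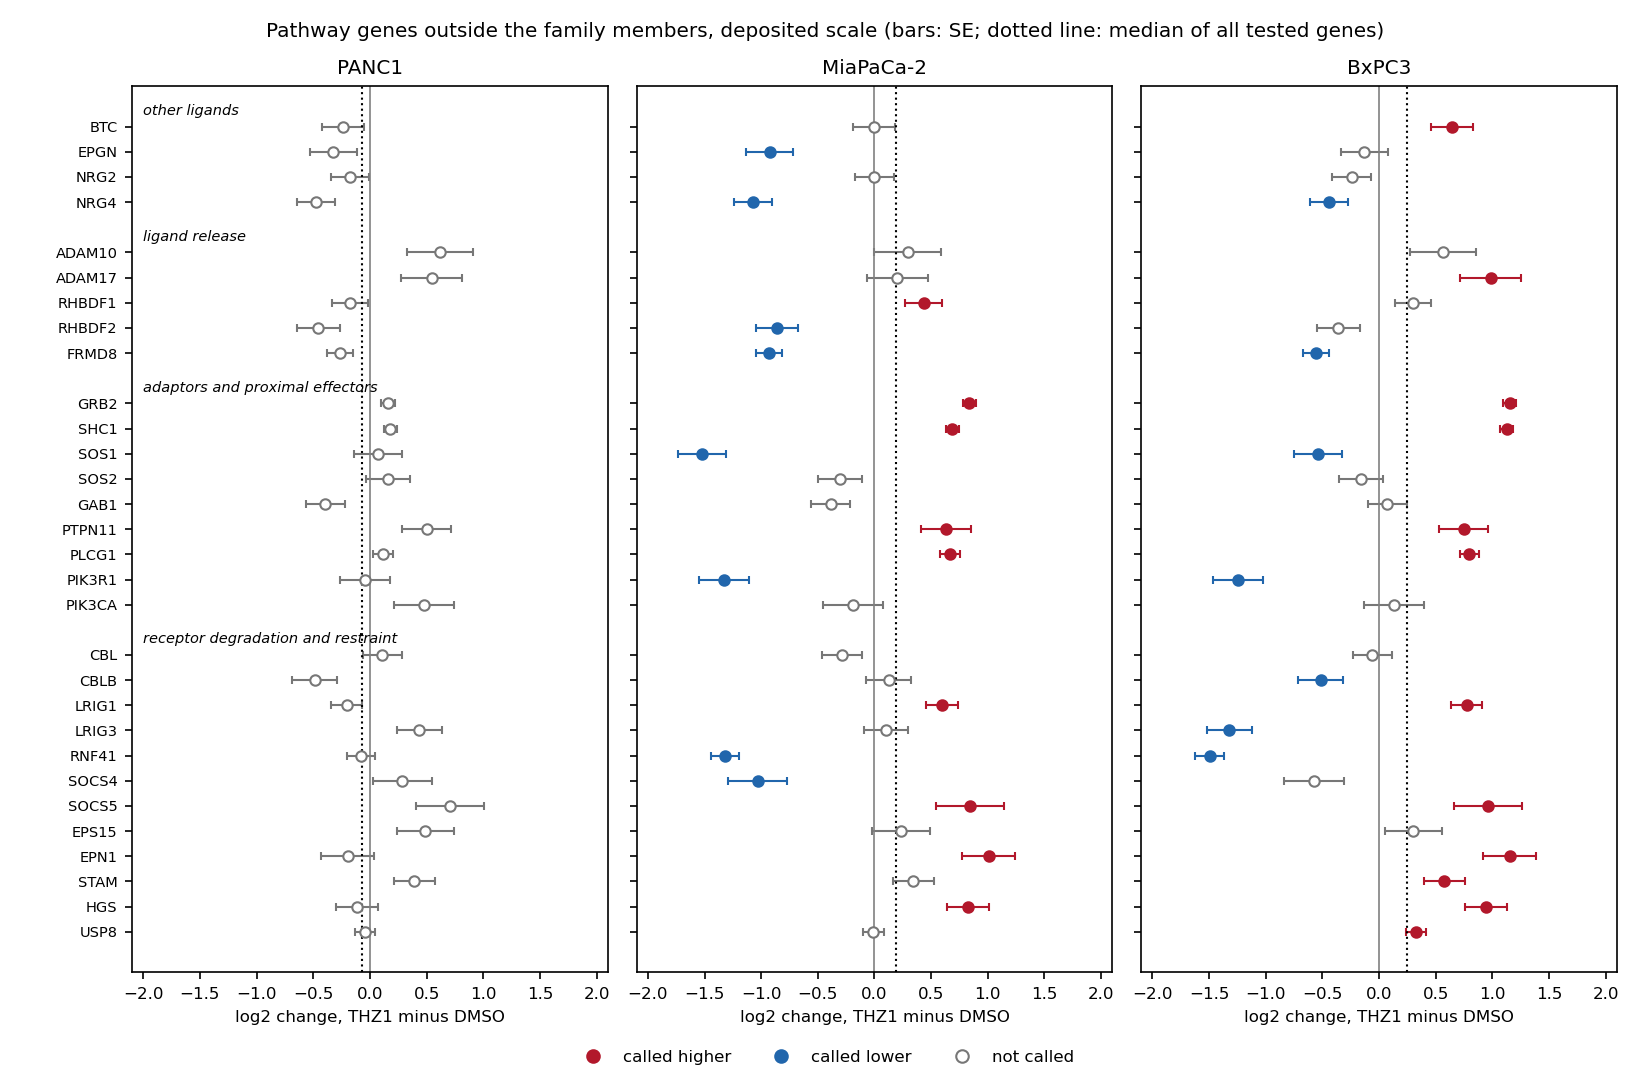
Log2 change, THZ1 minus DMSO, of the 30 further pathway genes tested, as deposited, by list and cell line, with SE bars. Red marks genes called higher, blue genes called lower and open grey genes not called, and the dotted line is the median of all tested genes. In PANC1 all 30 genes are open.

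Across the 18 libraries, the genes whose log2 levels ran most like each member were found among 7184 genes with a mean of at least 20 units. For HBEGF these were MESDC2, ABLIM1 and WLS (Pearson r = 0.994, 0.990 and 0.990), for EGFR FRMD6, E2F7 and ARFGEF1 (0.984, 0.980 and 0.964), and for ERRFI1 PDE10A, AFAP1 and MYPN (0.988, 0.987 and 0.982). For EREG they were RABEP1, NAMPT and CNOT8 (0.989, 0.986 and 0.982), for AREG HIVEP3, NEMF and WDR59 (0.965, 0.962 and 0.962), for ERBB2 ALDH7A1, SHMT1 and CTD_2228K2_7 (0.985, 0.980 and 0.979), and for ERBB3 IFI16, ARAP3 and PCDH1 (0.994, 0.989 and 0.989). These libraries form 3 lines, so that the values mainly follow the differences between lines and describe no relation within one.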

How the data were processed

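Polyadenylated RNA was sequenced in 18 stranded libraries, per the labels' protocols. STAR and hg19 are named in the submitters' processing notes. For the counting program, its annotation and its use of strand, the entry is: not given in the sources used here. Reads of EGFR and of its antisense gene cannot be told apart. The authors deposited a signal per gene, which proved to be whole reads divided by 1 whole number per library: 100% of values came out within 0.001 of a whole number (largest deviation 0.000112). What the divisor stands for was not stated, and no other columns of samples were left out. The authors' deposited log2 columns (mean ratio and mean level) and their deposited SD score were not used. The 38 ERCC rows served only for scaling, and 22 rows with dates in place of gene symbols were kept without names.

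Values were multiplied by 17.7, so that the mean library summed to 1e+06. Genes with at least 1 unit in at least 3 libraries were tested with limma 3.58.1 (R 4.3.3) after log2 transformation with a pseudocount of 1. The fit had a trend and 6 group means, and Benjamini-Hochberg adjustment ran over all 15354 genes at 0.05. A fold change on that scale understates the change of low genes. As an alternative, edgeR 4.0.16 quasi-likelihood tests on the recovered reads called 8502, 8219 and 19 genes in BxPC3, MiaPaCa-2 and PANC1. DESeq2 1.42.0, 4 other scalings, other pseudocounts and filters, fits of the compared groups alone, a replicate block and leaving out each library were further alternatives. Ratios were tested with exact permutation tests, and levels per kilobase used 1 transcript length per gene. Intervals are 95% and cover the spread between libraries. The members and gene lists were chosen with earlier results of these data known. Further pathway genes were named by rule: from each list, up to 2 with the highest and 2 with the lowest mean change over the 3 lines among genes called in at least 1 line. The ductal markers, CDH1 and KRT7 first, were named singly after their values were seen.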

Additional observations from a re-analysis of the deposited data

Results flagged for a closer look

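For 9 pairs of member and lines, the test of the difference between the THZ1 responses of 2 lines passed (limma, adjusted p under 0.05). Values are log2 differences as deposited.

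HBEGF differed in all 3 pairs of lines, by -0.80 for PANC1 minus MiaPaCa-2, -1.73 for PANC1 minus BxPC3 and -0.93 for MiaPaCa-2 minus BxPC3. The first of these was 0.06 at equal ERCC sums, where it was not called. ERRFI1 differed by 1.35 for PANC1 minus MiaPaCa-2 and by -1.68 for MiaPaCa-2 minus BxPC3, where the libraries of the treatments separated in opposite directions in the lines as deposited.

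EGFR differed by 0.92 for PANC1 minus MiaPaCa-2 and by 0.80 for PANC1 minus BxPC3, and by 0.56 and 0.44 without PANC1 DMSO replicate 1. ERBB3 differed by -0.76 for PANC1 minus MiaPaCa-2, which was 0.12 at equal ERCC sums, and by 0.96 for MiaPaCa-2 minus BxPC3. In PANC1 ERBB3 had 11 to 19 reads per library, so that no response of that line can be read from the first difference, and leaving out any 1 of 5 libraries ended its call (adjusted p up to 0.0763).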

How the results depend on the processing

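The rise of HBEGF in BxPC3, the fall of EGFR in BxPC3 and MiaPaCa-2 and the fall of ERRFI1 in MiaPaCa-2 were called on all 5 scales. They were also called with the other pseudocounts and filters and with edgeR and DESeq2. The call of EGFR in BxPC3 ended without BxPC3 DMSO replicate 1 (limma adjusted p = 0.0574). Without PANC1 DMSO replicate 1 it held (adjusted p = 1.24e-06). Other treatment changes turned with the scale. In BxPC3, ERBB2, AREG and EREG were -0.90, -0.80 and -1.13 at equal ERCC sums, -0.45, -0.43 and -0.68 at equal sums, -0.11, -0.14 and -0.34 with TMM, -0.018, -0.056 and -0.24 with DESeq2 size factors, -0.050, -0.093 and -0.27 with edgeR and -0.0053, -0.047 and -0.23 with DESeq2, and ERRFI1 was -0.65 and -0.20 at equal ERCC sums and equal sums. In MiaPaCa-2, ERBB2 and ERBB3 were -0.79 and -0.64 at equal ERCC sums and -0.15 and -0.13 at equal sums, and HBEGF was -0.32 at equal ERCC sums. In PANC1, EGFR, HBEGF and ERRFI1 were -0.10, -0.26 and -0.10 at equal ERCC sums, and ERBB2 and AREG were 0.069 and 0.016 with TMM, 0.11 and 0.045 with DESeq2 size factors, 0.066 and 0.068 with edgeR and 0.083 and 0.075 with DESeq2. In PANC1 minus MiaPaCa-2, the responses of ERBB3 and HBEGF were 0.12 and 0.061 at equal ERCC sums. A single left-out library gave log2 ranges of -0.034 to 0.10 for EREG in BxPC3, and in PANC1 of -0.18 to 0.42 for EGFR, -0.21 to 0.20 for ERBB2, -0.19 to 0.11 for AREG, -0.027 to 0.068 for HBEGF and -0.26 to 0.42 for ERRFI1.

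The members called in BxPC3 numbered 3, against 6 at equal ERCC sums, 5 at equal sums and 5 in the compared groups alone. Of all 15354 genes, 9055 were called, against 9273, 8001 and 11474 in those settings. With a library left out 2 to 5 members and 8187 to 11236 genes were called, 5 members and 11236 genes without PANC1 DMSO replicate 1. In PANC1 a left-out library gave 0 to 1 members. For PANC1 minus BxPC3 the members called numbered 2, against 5, 4 and 1 in the same 3 settings. The genes called there numbered 6561, against 4676, 5520 and 5148. With a library left out 1 to 4 members and 5714 to 8617 genes were called. For PANC1 minus MiaPaCa-2, 4 members and 5978 genes were called. They were 2 and 4902 with DESeq2 size factors, and 2 and 4418 in the compared groups alone. Genes called in PANC1 numbered 77, against 2803 at equal ERCC sums, 169 at equal sums, 21 with TMM, 19 with DESeq2 size factors, 145 with a pseudocount of 5, 26 without a filter, 144 with a minimum of 5, 19 with edgeR, 691 with DESeq2 and 5 to 3334 with a library left out. The compared groups alone gave 0 by limma, with 442 genes at an unadjusted p under 0.05. For MiaPaCa-2 minus BxPC3 the 2118 genes were 1211 at equal ERCC sums, 6129 in the compared groups alone and 1559 to 5426 with a library left out. The cause was not tested.

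Replicate numbers were not shown to pair the libraries: 3 of 9 same-numbered pairs had residuals correlated over 0.1, and 10 of 18 libraries correlated best with their own number. With the replicate block 9347, 8967 and 7 genes and 4, 4 and 0 members were called in BxPC3, MiaPaCa-2 and PANC1, ERRFI1 in BxPC3 being the member added (adjusted p = 0.0239). Depth limits ERBB3 in PANC1 and AREG throughout.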

Other observations

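Across the 18 libraries, log2 levels of ERBB3 and ERRFI1 ran in opposite directions (Pearson r = -0.93), as did EGFR and ERBB2 (-0.85), while ERBB2 and AREG ran together (0.88). The libraries come from 3 lines and share their scaling, so that these values describe differences between lines.

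The further receptor ERBB4, which binds EREG, HBEGF and BTC, had group means of 0.172 to 1.84 units over the 6 groups, and the ligand EGF had group means of 0.187 to 0.811 units. The highest means were those of PANC1 with DMSO, at 1.84 ± 2.64 units for ERBB4 and 0.811 ± 1.21 for EGF (SD, n = 3). For both genes the SD there exceeded the mean, so that the mean is not a level shared by the 3 libraries. In the other groups the means reached at most 0.671 units for ERBB4 and 0.366 for EGF. Both genes lay below the filter on low values.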
